A study of Homo sapiens with 4 samples.

Results

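The colorectal cancer cell lines HCT116 and LS513 were compared at the genomic segments that both lines' tables list with the same start and end. Of the 22187 distinct segments, called anchors, in the tables of these lines, 21606 were identical in both, and these are the members described here (53204 distinct anchors are listed over all 4 libraries of the series). HCT116 listed 164 further anchors and LS513 417, none of which overlapped an anchor of the other line. The identical anchors were 4.54 kb long in the median and covered 126.1 Mb of the hg19 genome in all.

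HCT116 is an established line from a colorectal carcinoma and LS513 an established line from a colorectal carcinoma of Dukes' type C, per the labels. Both came from the same repository, were kept untreated and were assayed by H3K27ac HiChIP, a method in which fixed chromatin is cut (here with MboI), ligated in the nucleus and immunoprecipitated with an antibody to acetylated lysine 27 of histone H3. Each line had 1 library, so that a difference between lines cannot be told apart from one between cultures or libraries, there is no spread between replicates, and no p-value is given. Intervals are exact conditional (Clopper-Pearson) 95% intervals and cover counting error only, as each line has 1 library. PETs carry no molecular identifiers, so repeated copies of a PET could not be told apart here, and the intervals may be too narrow.

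Acetylation of H3 lysine 27 is placed by the acetyltransferases p300 and CBP and marks promoters and enhancers in use. In HiChIP a paired-end tag (PET) whose ends fall in the same anchor reports short-range ligation within acetylated chromatin, and a PET between 2 anchors reports a contact such as that of an enhancer with a promoter. In the colonic epithelium, CDX2, HNF4A, KLF5 and GATA6 bind such elements and maintain intestinal identity, while WNT signalling through TCF7L2 and beta-catenin sustains the crypt programme that most colorectal cancers keep active.

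Gene starts at the anchors frame many of the differences described below, and the 250 bases upstream of the start are printed for 3 genes whose anchor held a higher rate of PETs in HCT116 (ABCC2, DKK1 and ERRFI1) and 3 whose anchor held a lower one (MUC2, CDX2 and KLF5). They are RefSeq sequences of GRCh38.p14, read 5′ to 3′ along the gene, at chr10:99782390-99782639, plus strand (ABCC2), chr10:52314031-52314280, plus strand (DKK1), chr1:8026310-8026559, minus strand (ERRFI1), chr11:1074624-1074873, plus strand (MUC2), chr13:27969316-27969565, minus strand (CDX2) and chr13:73054726-73054975, plus strand (KLF5). Capitals mark matches on either strand to the GC box GGGCGG, the AP-1 motif TGANTCA, the TCF/LEF motif CTTTGAT, the CDX motif TTTATG and the TATA box TATAAA.
ABCC2: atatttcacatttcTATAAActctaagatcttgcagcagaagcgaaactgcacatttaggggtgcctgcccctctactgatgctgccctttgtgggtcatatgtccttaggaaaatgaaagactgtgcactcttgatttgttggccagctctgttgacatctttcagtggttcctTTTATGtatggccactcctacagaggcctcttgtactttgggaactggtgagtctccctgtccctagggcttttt
DKK1: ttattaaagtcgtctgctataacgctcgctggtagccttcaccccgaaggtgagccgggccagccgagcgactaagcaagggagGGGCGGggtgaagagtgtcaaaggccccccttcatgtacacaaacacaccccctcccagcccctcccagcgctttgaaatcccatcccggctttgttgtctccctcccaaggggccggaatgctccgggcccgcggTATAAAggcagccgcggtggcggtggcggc
ERRFI1: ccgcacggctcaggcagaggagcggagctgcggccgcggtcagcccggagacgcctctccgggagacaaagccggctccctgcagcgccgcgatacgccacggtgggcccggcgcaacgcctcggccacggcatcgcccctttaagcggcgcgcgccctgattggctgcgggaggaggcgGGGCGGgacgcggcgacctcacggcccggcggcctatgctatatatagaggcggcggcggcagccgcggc
MUC2: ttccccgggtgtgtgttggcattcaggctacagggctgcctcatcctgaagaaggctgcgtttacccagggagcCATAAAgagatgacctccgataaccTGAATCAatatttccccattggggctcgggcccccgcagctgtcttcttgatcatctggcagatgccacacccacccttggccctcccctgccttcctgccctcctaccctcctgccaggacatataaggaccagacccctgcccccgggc
CDX2: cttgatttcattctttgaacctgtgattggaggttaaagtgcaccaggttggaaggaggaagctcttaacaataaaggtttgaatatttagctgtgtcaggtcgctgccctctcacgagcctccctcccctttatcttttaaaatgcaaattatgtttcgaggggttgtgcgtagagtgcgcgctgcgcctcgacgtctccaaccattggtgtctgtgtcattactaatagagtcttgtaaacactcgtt
KLF5: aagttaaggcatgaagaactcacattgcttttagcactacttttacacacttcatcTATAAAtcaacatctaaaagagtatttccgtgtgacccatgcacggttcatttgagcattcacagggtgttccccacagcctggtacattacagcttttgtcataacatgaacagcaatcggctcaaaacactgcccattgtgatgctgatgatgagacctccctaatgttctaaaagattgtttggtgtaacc

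ABCC2 held 1 TATA box and 1 CDX match, DKK1 1 GC box and 1 TATA box, ERRFI1 1 GC box, MUC2 1 AP-1 and 1 CDX match, KLF5 1 TATA box, and CDX2 none of the 5 motifs. Over the 35116 promoters of the table, 42.6% held a GC box of these letters, 6.6% the AP-1 letters, 2.3% the TCF/LEF letters, 9.6% the CDX letters and 10.7% the TATA letters. The 6 promoters ranged from 1 CG dinucleotide in ABCC2 and 3 in KLF5, through 6 in MUC2, 10 in CDX2 and 18 in DKK1, to 39 in ERRFI1, against a median of 11 over the table. The promoters of MUC2, CDX2 and KLF5 all lay under this median, while those of ABCC2, DKK1 and ERRFI1 lay on both sides of it. The 6 do not stand for the listed genes described below. Among those with a promoter in the table, the median was 14.5 for 6 called higher in same-anchor PETs. It was 15.5 for 22 called lower and 21 for 68 not called. A match is a run of letters and not a measured site.

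The identical anchors held 862788 same-anchor PETs in HCT116 and 1386134 in LS513, and 81449 PETs in 40578 loops in HCT116, against 221369 PETs in 73815 loops in LS513 (a loop is a filtered pair of anchors whose midpoints lie 5 kb to 2 Mb apart). For each 100 same-anchor PETs there were 9.44 loop PETs in HCT116 and 15.97 in LS513. PETs were therefore compared as rates, in PETs per 1000000 PETs of their class in the line, and each ratio is HCT116 over LS513. An anchor or loop was called higher at a ratio of at least 2 whose interval lay above 1 with at least 10 PETs in HCT116, and lower at a ratio of at most 0.5 whose interval lay below 1 with at least 10 PETs in LS513. A count of 0 allows up to 3 counts, which is a rate of 3.48 same-anchor PETs in HCT116 and 2.16 in LS513, and of 36.8 loop PETs in HCT116 and 13.6 in LS513. A fold against this floor sets the 0 to 3 counts. It leaves out the counting error of the other line, so the interval can reach closer to 1.

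Epithelial markers were present in both libraries. Of 13 marker genes of colorectal epithelium whose position could be checked, 11 had an identical anchor at their start, and these had rates of 9.27 to 720 same-anchor PETs per 1000000 in HCT116 and 6.49 to 840 in LS513, summing to 2521 in HCT116 and 3373 in LS513. CEACAM5 and KRT20 had none. Of 14 markers of other cell types, 4 had an anchor, with rates summing to 198 in HCT116 and 353 in LS513, and of these PDGFRB shares its anchor with the epithelial gene CDX1. The markers PTPRC, CD3E, VWF, DCN, DES, ALB, INS, MYOD1, HBB and LUM had no identical anchor at their start.

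Before single anchors, whole chromosomes differed. Chromosome 13 held 1.52% of the same-anchor PETs in HCT116 (interval 1.49 to 1.54) and 3.34% in LS513 (3.31 to 3.37), a ratio of 0.455 (0.446 to 0.464). Its loop PETs gave 0.459 (0.428 to 0.491). Chromosomes 5, 9 and 7 were also lower in HCT116, at same-anchor ratios of 0.749, 0.756 and 0.786 and loop ratios of 0.738, 0.731 and 0.820. Chromosomes 10 and 8 were higher, at same-anchor ratios of 1.33 and 1.28 and loop ratios of 1.43 and 1.27, followed by 17 and 12 with 1.18 and 1.16 in same-anchor PETs and 1.10 and 1.24 in loop PETs. What sets these chromosome ratios was not tested. Ratios below are also given scaled by chromosome, with rates taken within the same chromosome, where that changes the call or where the anchor was chosen that way.

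**Figure D1:**
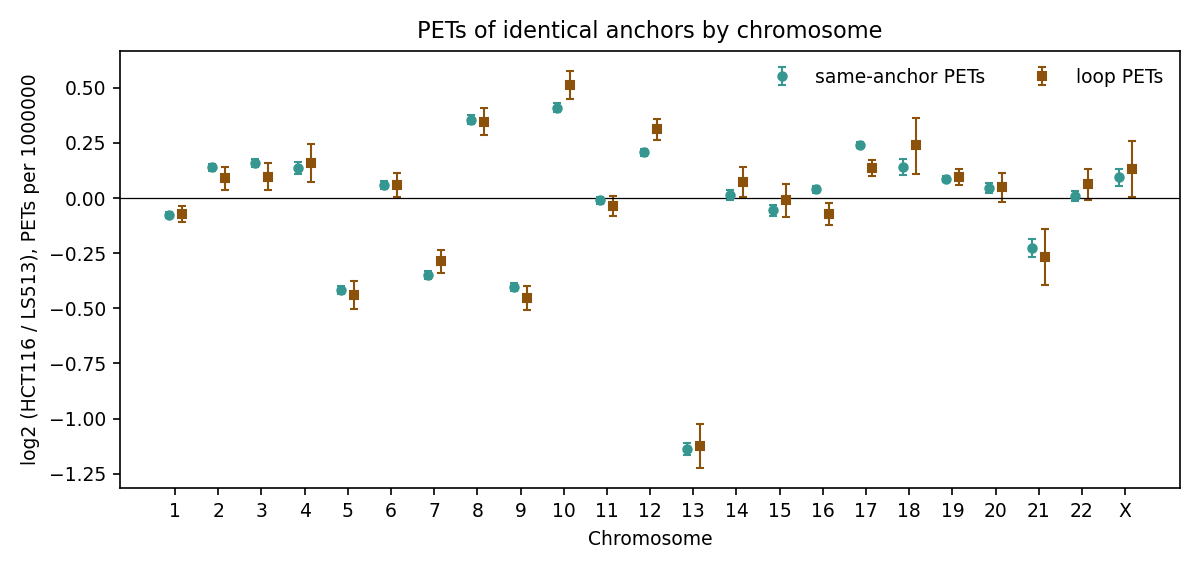
The log2 ratio of HCT116 over LS513 (vertical axis) is plotted for each chromosome (horizontal axis) for same-anchor PETs (circles) and loop PETs (squares), with bars for the 95% counting interval. Chromosome 13 stands lowest in both classes, at ratios of 0.455 and 0.459, and chromosome 10 highest, at 1.33 and 1.43.

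In same-anchor PETs, HCT116 was called higher at 3140 of the 21606 anchors (14.5%) and lower at 1279 (5.92%). This balance differed with depth, taken as the unscaled sum of the PETs of both lines. LS513 held more PETs, so an excess in LS513 moves an anchor to a deeper class more readily than an equal excess in HCT116. Part of the shift with depth can therefore come from the classes themselves. Of the 11217 anchors with under 50 PETs in both lines together, 1619 were higher and 288 lower, whereas of the 3012 with 200 or more, 203 were higher and 368 lower. Among the 9917 anchors with at least 20 PETs in each line the median ratio was 1.11 (log2 0.15). The 25th and 75th percentiles of log2 were -0.37 and 0.68. With this median set to 1, 2466 anchors (11.4%) were higher and 1729 (8.0%) lower, which moves the balance toward lower calls. Scaled by chromosome, 2969 (13.7%) were higher and 1183 (5.48%) lower. On chromosome 13 alone, 9 of 420 anchors were higher and 134 lower per class total, and 70 were higher and 11 lower after scaling by chromosome.

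**Figure D2:**
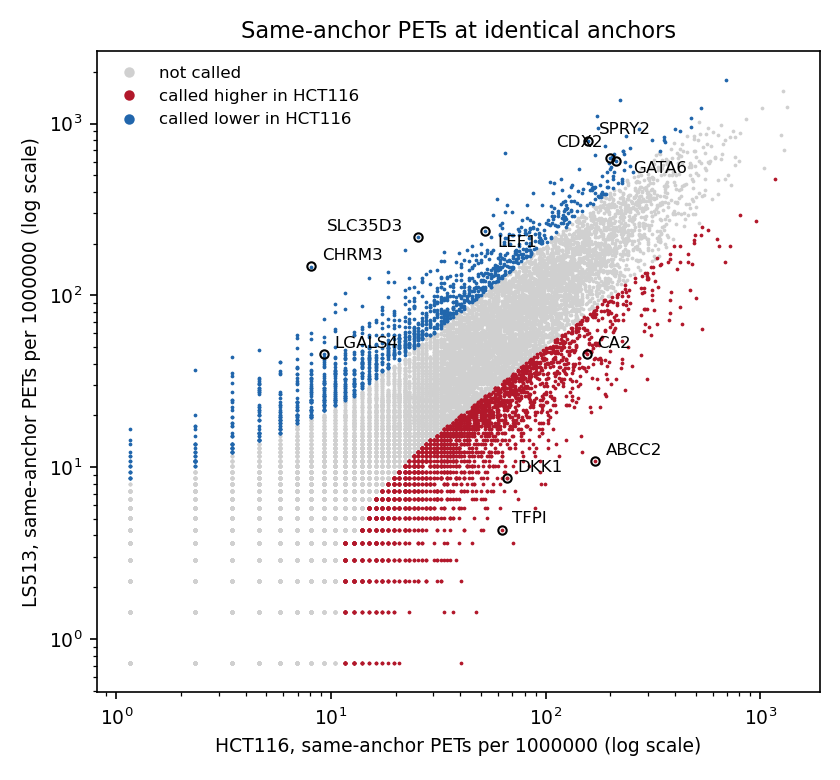
Same-anchor PETs per 1000000 are plotted for each identical anchor with PETs in both lines, HCT116 on the horizontal and LS513 on the vertical axis, both on a log scale. Red points were called higher and blue points lower in HCT116, and circles mark named gene starts: ABCC2 lies at a rate of 170 in HCT116 and 10.8 in LS513, and CHRM3 at 8.11 in HCT116 and 147 in LS513.

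The anchors named here are the 8 whose interval began highest and the 8 whose interval ended lowest, with 4 more each way after scaling by chromosome. They were picked by these values, which are given as a description. Ratios that rest on few PETs in LS513 depend on its depth: with LS513 thinned at random to the PET total of HCT116, 21 of the 72 anchors and loops named by these rules moved by more than 1.5 times, 17 of them to a smaller ratio, and thinned values are given beside several of these. Among gene starts that of ABCC2 ranked first. ABCC2 encodes the efflux transporter MRP2. Its anchor (chr10:101537433-101541722, hg19) held 147 PETs in HCT116 and 15 in LS513, giving a ratio of 15.7 (9.24 to 28.9), and 11.8 scaled by chromosome. The start of TFPI, the inhibitor of tissue factor in coagulation, lies in an anchor (chr2:188417674-188421666) with 54 PETs in HCT116 and 6 in LS513 (14.5, 6.23 to 41.1). That of the vault RNA gene VTRNA1-2 (chr5:140097175-140100595) had 16 PETs in HCT116 and 0 in LS513, and was 8.57-fold higher against the floor of 3 PETs (interval from 6.20). Few PETs in LS513 thus stand behind all 3 ratios.

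Most other anchors with the highest bounds lay inside or between genes. An anchor in PHLDB2, which tethers microtubules at the cell cortex (chr3:111620729-111627155), held 128 PETs in HCT116 and 17 in LS513 (ratio 12.1, 7.27 to 21.4). An anchor in the SNARE gene VTI1A (chr10:114249930-114254573) held 86 PETs in HCT116 and 11 in LS513 (12.6, 6.68 to 26.1). It was also among the highest in loop PETs, with 24 in HCT116 and 2 in LS513 (32.6, 8.10 to 285, and 8 against the floor with LS513 thinned). Between TMEM67 and PDP1 (chr8:94914377-94919029) there were 35 same-anchor PETs in HCT116 and 1 in LS513 (56.2, 9.45 to 2284, and 11.7 against the floor with LS513 thinned), and 39 loop PETs in HCT116 against 7 in LS513.

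The interval between NYAP2 and IRS1, the gene of insulin receptor substrate 1, held the best covered of these anchors. The anchor at chr2:227513162-227540733 had 464 same-anchor PETs in HCT116 and 88 in LS513 (8.47, 6.73 to 10.8), and its neighbour at chr2:227337493-227351737 had 82 in HCT116 and 11 in LS513 (11.98, 6.36 to 24.9). Of the 7 identical anchors in this stretch 6 were called higher and none lower, with 695 PETs in HCT116 and 153 in LS513 in sum. Anchors between GPR15 and CPOX (chr3:98273808-98276280) and between CCKAR and TBC1D19 (chr4:26568804-26571310) had 61 and 77 PETs in HCT116, against 5 and 8 in LS513 (ratios of 19.6 and 15.5, and 61.0 and 9.63 with LS513 thinned), with at most 5 loop PETs in HCT116 and 0 in LS513. The remaining 2 of this set, at chr15:59876468-59881328 (41 PETs in HCT116, 2 in LS513) and chr14:61642904-61646350 (32 in HCT116, 2 in LS513), are given by position only.

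Among the anchors lower in HCT116, 5 of the 8 lowest bounds lay at a gene start or in a gene outside chromosome 13. The start of CHRM3, the muscarinic acetylcholine receptor M3 (chr1:239548265-239552328), had 7 PETs in HCT116 and 204 in LS513, giving a ratio of 0.0551 (0.0219 to 0.116) or 18.1-fold lower. An anchor in AUTS2 (chr7:70157092-70161287) held 56 PETs in HCT116 and 931 in LS513 (0.0966, 0.0724 to 0.127), with 0 loop PETs in both lines. The starts of SLC35D3 (chr6:137240919-137245284; 22 PETs in HCT116, 301 in LS513), the semaphorin gene SEMA5A (chr5:9543639-9548824; 19 in HCT116, 254 in LS513) and LRATD1 (chr2:14771413-14777023; 13 in HCT116, 175 in LS513) were 8.52-, 8.32- and 8.38-fold lower. The starts of SEMA5A and LRATD1 had 0 loop PETs in HCT116, against 5 and 3 in LS513, and that of SLC35D3 had 2 in HCT116 and 20 in LS513.

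After scaling by chromosome the starts of LRATD2 (51 PETs in HCT116, 504 in LS513), the vesicle exocytosis gene CADPS (9 in HCT116, 123 in LS513), ZNF69 (3 in HCT116, 61 in LS513) and SIDT1 (9 in HCT116, 111 in LS513) joined them, at scaled ratios of 0.127, 0.105, 0.0744 and 0.117. An anchor at chr14:107249922-107254695 held 10 PETs in HCT116 and 143 in LS513. The other 2 of the 8 lowest were on chromosome 13 and kept their call after scaling. An anchor at the end of COL4A2, a type IV collagen chain gene (chr13:111153076-111165630), held 191 PETs in HCT116 and 1907 in LS513, giving a ratio of 0.161 (0.138 to 0.187) and 0.354 scaled. An anchor in MCF2L, a guanine nucleotide exchange factor gene (chr13:113632565-113657982), held 150 in HCT116 and 1524 in LS513 (0.158, 0.133 to 0.187, and 0.348 scaled).

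Among the listed genes, lower calls in HCT116 outnumbered higher ones in same-anchor PETs. Of 190 listed genes, 182 had a position that passed the check and 146 had an identical anchor within 5 kb of their start. In same-anchor PETs 9 of these 146 were called higher and 29 lower, against 14.5% and 5.92% of all anchors. Calls depend on PET number, and most listed genes are well covered: of the 77 with at least 200 PETs in both lines together, 18 (23.4%) were lower and 2 (2.6%) higher, where 12.2% of the 3012 anchors at that depth were lower and 6.74% higher. The lists and their members were chosen with results of these data known, so their counts are a description and not independent support.

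Of 17 intestinal transcription factor genes with an anchor, 8 were lower in HCT116 and 1 higher. The median log2 ratio was -0.95, against 0.29 over all anchors, and -0.71 scaled by chromosome. GATA6, a zinc finger factor of endoderm and crypt cells (chr18:19745263-19776446), had 184 PETs in HCT116 and 840 in LS513 (0.352, 0.298 to 0.413). KLF4, a factor of differentiated goblet cells, had 17 in HCT116 and 93 in LS513 (0.294, 0.164 to 0.496), and VDR, the vitamin D receptor, had 11 in HCT116 and 63 in LS513 (0.281, 0.133 to 0.537). The start of HNF4A had 5 in HCT116 and 22 in LS513 (0.365, 0.108 to 0.988), the interval ending just under 1. All 4 were also lower after scaling by chromosome.

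CDX2, the homeobox factor whose promoter is printed above, had 173 same-anchor PETs in HCT116 and 879 in LS513, giving a ratio of 0.316 (0.267 to 0.373). It lies on chromosome 13, and scaled by chromosome the ratio was 0.695 and no longer called. KLF5, a zinc finger factor of crypt cells on the same chromosome, had 73 in HCT116 and 336 in LS513 (0.349, and 0.768 scaled), which was not called after scaling. PDX1, beside CDX2, had 34 in HCT116 and 244 in LS513 (0.224) and stayed lower, at 0.492. CDX1 on chromosome 5 had 54 in HCT116 and 179 in LS513 (0.485) and was not called scaled, at 0.647. SOX9, a crypt progenitor factor, had 10 in HCT116 and 31 in LS513, and was not called per class total but was lower when scaled (0.439). PPARG, a nuclear receptor, ran the other way with 29 in HCT116 and 19 in LS513 (2.45, 1.33 to 4.63).

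Of 13 colonocyte and mucus genes with an anchor, 5 were lower and 1 higher, with a median log2 ratio of -0.32. They were MUC2, the gel-forming mucin (55 PETs in HCT116, 282 in LS513; 0.313), the lectin LGALS4 (8 in HCT116, 63 in LS513; 0.204), GPA33, a surface antigen of intestinal cells (57 in HCT116, 300 in LS513; 0.305), the tetraspanin TSPAN8 (23 in HCT116, 137 in LS513; 0.270) and the brush border cadherin CDHR5 (10 in HCT116, 56 in LS513; 0.287). All 5 were also lower when scaled by chromosome, where VIL1, the microvillus protein villin, joined them (25 in HCT116, 79 in LS513; 0.508, and 0.462 scaled). CA2, carbonic anhydrase of absorptive cells, was higher in HCT116, with 134 PETs against 63 in LS513 (3.42, 2.52 to 4.69).

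Of 15 WNT targets and feedback genes, 6 were lower and 1 higher, with a median log2 ratio of -0.51. LEF1, a nuclear partner of beta-catenin, had 45 PETs in HCT116 and 330 in LS513 (0.219, 0.157 to 0.300). ASCL2, a factor of crypt stem cells, had 80 in HCT116 and 319 in LS513 (0.403), SP5 70 in HCT116 and 314 in LS513 (0.358), and the ephrin receptors EPHB2 and EPHB3 15 and 154 in HCT116, against 57 and 607 in LS513 (0.423 and 0.408). The feedback gene NKD2 had 109 in HCT116 and 445 in LS513 (0.394) and was not called when scaled by chromosome, at 0.526. DKK1, a secreted WNT inhibitor (promoter above), was the exception, with 57 PETs in HCT116 and 12 in LS513 (7.63, 4.05 to 15.6), and had 0 loop PETs in both lines.

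Of 10 mesenchymal and EMT genes with an anchor, 3 were higher and 1 lower. COL1A1, a type I collagen chain, had 57 PETs in HCT116 and 19 in LS513 (4.82, 2.83 to 8.58), CAV1, of caveolae, 64 in HCT116 and 32 in LS513 (3.21, 2.07 to 5.08), and the receptor kinase gene AXL 204 in HCT116 and 128 in LS513 (2.56, 2.04 to 3.22). ZEB1, a repressor of epithelial genes, was lower, with 23 in HCT116 and 83 in LS513 (0.445, 0.268 to 0.714). The median log2 ratio over the 10 genes in same-anchor PETs was 0.24, against 0.29 over all anchors. Of 17 epithelial junction and keratin genes, EPCAM (25 in HCT116, 100 in LS513; 0.402) and CLDN3 (38 in HCT116, 140 in LS513; 0.436) were lower and none higher, with a median of 0.07. Scaled by chromosome, CLDN3 was not called (0.555) and the keratin gene KRT18 was lower (239 in HCT116, 699 in LS513; 0.549, and 0.476 scaled).

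The ERBB, MET and ERK feedback genes were split, with 3 of 18 higher and 3 lower. EREG, an EGFR ligand (59 PETs in HCT116, 41 in LS513; 2.31), the ERK phosphatase DUSP5 (153 in HCT116, 71 in LS513; 3.46) and the EGFR inhibitor ERRFI1 (77 in HCT116, 47 in LS513; 2.63) were higher. EGFR itself (200 in HCT116, 743 in LS513; 0.433, and 0.550 scaled), the ERK pathway inhibitor SPRY2 (136 in HCT116, 1103 in LS513; 0.198) and PHLDA1 (92 in HCT116, 423 in LS513; 0.349) were lower. SPRY2 lies on chromosome 13 and stayed lower when scaled, at 0.436, while EGFR was then not called. Of 19 TGF-beta and BMP genes, the ligand genes BMP4 (136 in HCT116, 624 in LS513; 0.350) and BMP7 (47 in HCT116, 185 in LS513; 0.408) and SKIL (4 in HCT116, 20 in LS513; 0.321) were lower and none higher. Scaled by chromosome, the ERK phosphatase gene DUSP4 (83 in HCT116, 226 in LS513; 0.590, and 0.461 scaled) and BAMBI, the gene of a TGF-beta pseudoreceptor (128 in HCT116, 328 in LS513; 0.627, and 0.472 scaled), were also lower.

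Neither the 14 p53 targets nor the 19 broadly active reference genes had a call in same-anchor PETs, at median log2 ratios of -0.06 and -0.08. With the median of all anchors set to 1, the reference genes ACTB and RACK1 were lower, as were ELF3 and SOX9 of the intestinal factors, VIL1, KRT18 and SPRED1, and the listed genes came to 9 higher and 36 lower. In that setting 10 of 17 intestinal factors were lower. PDGFRB of the other cell types was lower per class total through the anchor it shares with CDX1, which was not called scaled by chromosome, at 0.647.

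**Figure D3:**
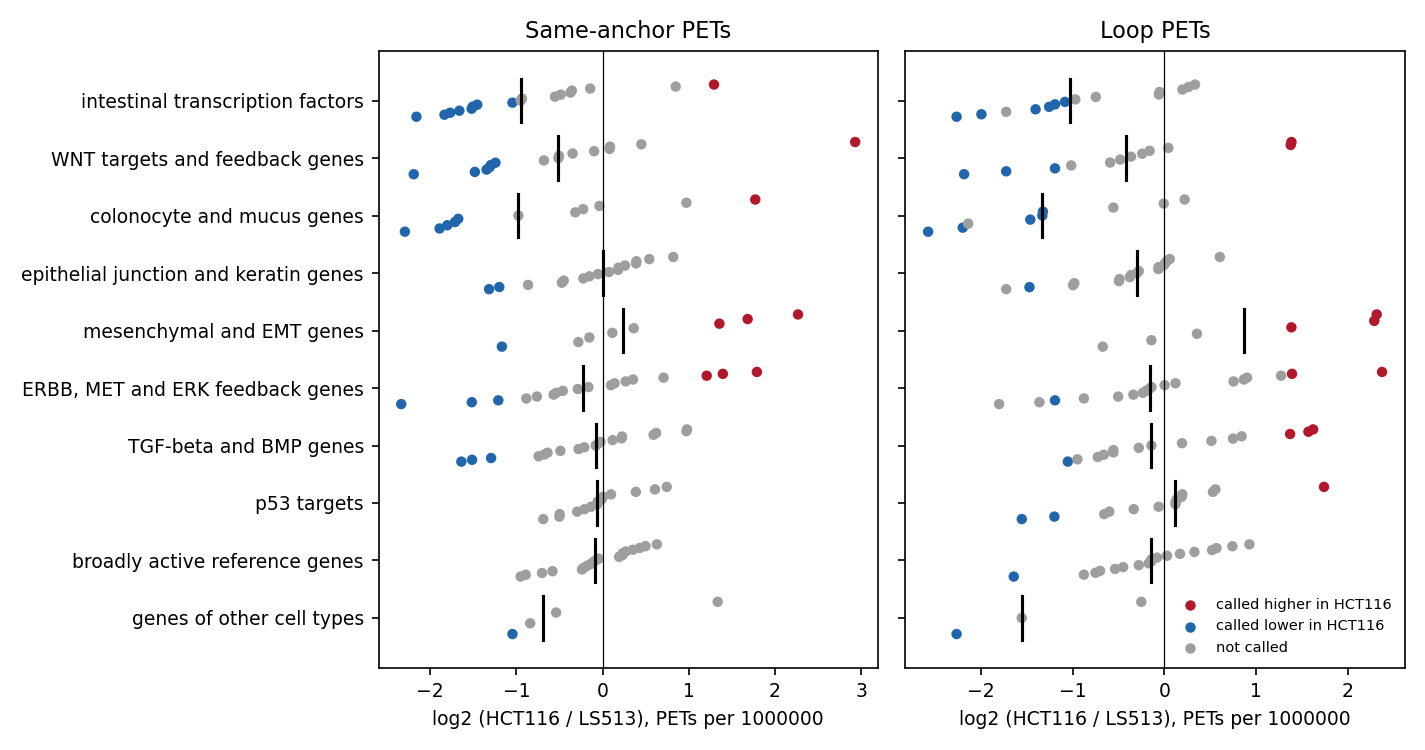
Each point is a listed gene with an identical anchor at its start and at least 10 PETs in both lines together, placed by the log2 ratio of HCT116 over LS513 (horizontal axis) in same-anchor PETs (left) and loop PETs (right). Red points were called higher and blue points lower in HCT116, and black bars are the medians of the plotted genes. In the left panel 8 intestinal transcription factor genes and 6 WNT genes are blue, and no p53 target or reference gene has a colour.

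Loop PETs, summed at each anchor over all its partners, were called in similar numbers each way per class total, where HCT116 was higher at 832 anchors (3.85%) and lower at 827 (3.83%). Here too the balance differed with depth, in classes of the same unscaled sum, which lean toward LS513 as above. Among anchors with under 50 loop PETs in both lines together 3.42% were higher and 1.93% lower. Among those with 200 or more, 4.05% were higher and 13.5% lower. With the median ratio of anchors with 20 loop PETs in each line (1.11) set to 1, 680 (3.15%) were higher and 1166 (5.4%) lower, and scaled by chromosome 774 (3.58%) were higher and 762 (3.53%) lower. Anchors had a median of 3 partners in HCT116 and 5 in LS513, and 146 anchors in HCT116 against 1150 in LS513 had 20 or more, beside 81449 loop PETs in HCT116 and 221369 in LS513.

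The interval between ERRFI1 and SLC45A1 on chromosome 1 held 3 of the 8 anchors whose interval in loop PETs began highest. Of its 11 identical anchors from 8099427 to 8282782, 10 were higher in same-anchor PETs and none lower. In sum they held 3129 same-anchor PETs in HCT116 and 1161 in LS513, giving a ratio of 4.33 (4.05 to 4.64). The 50 loops among them held 584 PETs in HCT116 and 194 in LS513, giving a ratio of 8.18 (6.94 to 9.68), with 19 loops called higher and none lower. The anchor at chr1:8192698-8201266 had 83 loop PETs in HCT116 and 10 in LS513 (22.6, 11.7 to 48.8), that at chr1:8173784-8183353 had 104 in HCT116 and 23 in LS513 (12.3, 7.77 to 20.2), and that at chr1:8247829-8252134 had 89 in HCT116 and 22 in LS513 (11, 6.83 to 18.4). The start of ERRFI1 itself had 57 in HCT116 and 59 in LS513 (2.63, 1.79 to 3.85), and its loop of 61.7 kb into the interval had 23 PETs in HCT116 and 18 in LS513 (3.47, 1.79 to 6.83). The stretch was chosen after its values were seen.

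A second stretch lay between LRATD2 and POU5F1B on chromosome 8, upstream of MYC, the proto-oncogene and WNT target. Its 9 identical anchors held 1347 same-anchor PETs in HCT116 and 544 in LS513 (3.98, 3.60 to 4.40), with 6 called higher and 1 lower, and the 17 loops among them held 161 PETs in HCT116 and 59 in LS513 (7.42, 5.47 to 10.2). The anchor at chr8:128339083-128346238 had 43 loop PETs in HCT116 and 8 in LS513 (14.6, 6.79 to 36.0). The start of MYC did not differ past the fold in same-anchor PETs, with 234 in HCT116 and 354 in LS513 (1.06, 0.896 to 1.26), and had 76 loop PETs in HCT116 against 79 in LS513 (2.62, 1.88 to 3.63). Its loop of 521 kb to the anchor at chr8:128215200-128241150 had 22 PETs in HCT116 and 10 in LS513 (5.98, 2.72 to 14.1), and 4.70 scaled by chromosome. The LRATD2 start next to this stretch was lower in HCT116, as given above.

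Single anchors with the highest bounds in loop PETs lay between MED13L and MAP1LC3B2 (chr12:116862880-116866718), with 22 in HCT116 and 1 in LS513 (59.8, 9.67 to 2468, and 7.33 against the floor with LS513 thinned), in the guanine nucleotide exchange factor gene ARHGEF3 (chr3:57039100-57043324), with 11 in HCT116 and 0 in LS513, and in AMZ2 (chr17:66242460-66246157), also with 11 in HCT116 and 0 in LS513. ARHGEF3 and AMZ2 were 9.97-fold higher against the floor (interval from 6.82), and 3.67-fold against it with LS513 thinned. Scaled by chromosome, 2 anchors at chr1:94763146-94768556 and chr1:94780526-94783356 joined them, with 18 and 17 loop PETs in HCT116 and 2 in LS513 at each, as did the NYAP2 to IRS1 anchor described above, with 66 in HCT116 and 17 in LS513 (10.6, 6.12 to 19.2).

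The lowest bound in loop PETs was in ZFPM1, which encodes the GATA cofactor FOG1. The anchor inside the gene (chr16:88547361-88557949) had 0 loop PETs in HCT116 and 92 in LS513, and was 11.3-fold lower against the floor (ratio interval up to 0.111). Its same-anchor PETs were 47 in HCT116 and 147 in LS513, giving a ratio of 0.514 (0.362 to 0.718) that was not called per class total, but was lower scaled by chromosome, at 0.4998. The anchor at the start of TPPP3, a tubulin binding protein gene (chr16:67423992-67434181), had 2 loop PETs in HCT116 and 67 in LS513 (0.0811, 0.00963 to 0.305), with 1 partner in HCT116 and 20 in LS513. In CYB5A, the cytochrome b5 gene (chr18:71946716-71953481), there were 0 in HCT116 and 33 in LS513, 4.05-fold lower against the floor (ratio interval up to 0.321). The anchor at chr11:1048206-1057643, 23.9 kb from that of MUC2 between midpoints, had 8 in HCT116 and 152 in LS513 (0.143, 0.0607 to 0.289).

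On chromosome 13, 4 anchors were among the lowest in loop PETs. The MCF2L anchors at chr13:113621269-113625566 and chr13:113632565-113657982 had 9 and 20 loop PETs in HCT116, against 200 and 351 in LS513, at ratios of 0.122 and 0.155, and 0.267 and 0.338 scaled. The anchor in RAB20, a small GTPase gene (chr13:111168651-111185366), had 33 in HCT116 and 438 in LS513 (0.205, and 0.446 scaled). The COL4A2 anchor had 55 in HCT116 and 601 in LS513 (0.249), which at 0.542 was not called after scaling. Scaled by chromosome, anchors in IRF2 (0 in HCT116, 31 in LS513), in IL20RA (0 in HCT116, 32 in LS513), between TBX3 and MED13L (0 in HCT116, 28 in LS513) and at PWWP2B (16 in HCT116, 159 in LS513) were added, at scaled ratios of 0.235, 0.245, 0.235 and 0.191, of which the first 3 rest on the floor.

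The lists kept their pattern in part in loop PETs, where 11 of the 146 genes were higher and 21 lower, against 3.85% and 3.83% of all anchors. Of the 146, 74 had under 50 loop PETs in both lines together. Of these 5.41% were higher and 4.05% lower, against 3.42% and 1.93% of all anchors at that depth. Of the 30 with 50 to 99 loop PETs in both lines together, 16.7% were higher and 26.7% lower, against 6.58% and 14.7% of all anchors at that depth. Of the 27 with at least 100 but under 200, 7.41% were higher and 25.9% lower, against 5.9% and 13%, and of the 15 with 200 or more, 0 were higher and 3 lower, against 4.05% and 13.5%. CDX1, CDX2, GATA6, KLF5, KLF4 and PDX1 were lower and no intestinal factor was higher, but scaled by chromosome 3 of 17 were lower (CDX1, GATA6 and TBX3, a T-box factor). The scaled ratios of CDX2, KLF5, KLF4 and PDX1 were 0.822, 1.03, 0.572 and 0.952, so that KLF5 no longer lay under 1. The median log2 ratio of the 17 factors was -0.97, against 0.305 over all anchors, and -0.21 scaled. The 0.305 includes 888 anchors with 0 loop PETs in both lines, which come out above 0 through the floor. Over the 1880 anchors with at least 20 loop PETs in each line the median was 0.155. GATA6 had 7 loop PETs in HCT116 and 76 in LS513 (0.2503, 0.0974 to 0.541) and CDX1 10 in HCT116 and 131 in LS513 (0.207, 0.0972 to 0.394), and both were called in either scaling. Of the colonocyte genes VIL1, LGALS4, MUC2, GPA33 and CDHR5 were lower in either scaling. MUC2 had 8 in HCT116 and 100 in LS513 (0.217, 0.0914 to 0.445) and CDHR5 4 in HCT116 and 65 in LS513 (0.167, 0.0443 to 0.449).

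Among the WNT genes, MYC and TCF7L2 were higher in loop PETs and ASCL2, NKD1 and NKD2 lower. ASCL2 had 16 in HCT116 and 198 in LS513 (0.220, 0.123 to 0.366). TCF7L2, the main intestinal TCF, had 44 in HCT116 and 46 in LS513 (2.60, 1.68 to 4.02) and was not called when scaled by chromosome, at 1.82. COL1A1 (27 in HCT116, 15 in LS513; 4.89), CAV1 (22 in HCT116, 12 in LS513; 4.98) and AXL (25 in HCT116, 26 in LS513; 2.61) were higher, as in same-anchor PETs. The median log2 ratio of the 10 mesenchymal genes was 1.05 in loop PETs (1.22 scaled), against 0.305 over all anchors. This median rests in part on the floor. CCN2 (0 in HCT116, 1 in LS513) and TGFBI (0 in HCT116, 5 in LS513) came out at 3.03 and 0.71 through it. VIM (1 in HCT116, 0 in LS513) came out at -0.14. Only 1 of the 10 genes had at least 20 loop PETs in each line. Also higher were TGFBR2, a TGF-beta receptor gene (17 in HCT116, 15 in LS513; 3.08), and its effector gene SMAD3 (40 in HCT116, 42 in LS513; 2.59), whose same-anchor PETs were not called. DUSP5 (42 in HCT116, 22 in LS513; 5.19) and ERRFI1 were higher, and EGFR (18 in HCT116, 112 in LS513; 0.437, and 0.533 scaled, not called), CLDN3 (33 in HCT116, 249 in LS513; 0.360) and BMP7 (17 in HCT116, 96 in LS513; 0.481) lower. MDM2, the p53 inhibitor (16 in HCT116, 13 in LS513; 3.35), was higher, and BAX, BTG2 and the reference gene PPIA lower, of which BTG2 (4 in HCT116, 32 in LS513; 0.340, and 0.357 scaled) and PPIA (4 in HCT116, 34 in LS513; 0.320, and 0.390 scaled) were not called when scaled by chromosome. That scaling added EPCAM, the splicing factor gene ESRP1 and PHLDA1 as lower, at 0.475, 0.394 and 0.438, and the ERK pathway inhibitor SPRY4 as higher, at 2.53.

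Loop by loop, 25289 pairs of identical anchors were present in both lines, which is 62.3% of the HCT116 loops and 34.3% of the LS513 loops. Loops with many PETs were nearly always shared. Of 806 loops with at least 10 PETs in HCT116, 804 were present in LS513, and of 3978 such loops in LS513, 3723 were present in HCT116. Loops found in HCT116 alone held 1 PET in 13583 of 15289 cases, and those in LS513 alone in 34416 of 48526. Of all 89104 loops, 267 (0.3%) were higher and 278 (0.312%) lower in HCT116, and scaled by chromosome 252 (0.283%) were higher and 247 (0.277%) lower. The 148 loops with at least 20 PETs in each line had a median ratio of 1.47, and with it set to 1 the counts were 162 (0.182%) higher and 929 (1.04%) lower, so the balance between directions depends on this choice. The called loops were short, with a median of 32.1 kb between midpoints for those higher and 38.1 kb for those lower, against 206 kb for the rest, most of which hold too few PETs to be called.

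**Figure D4:**
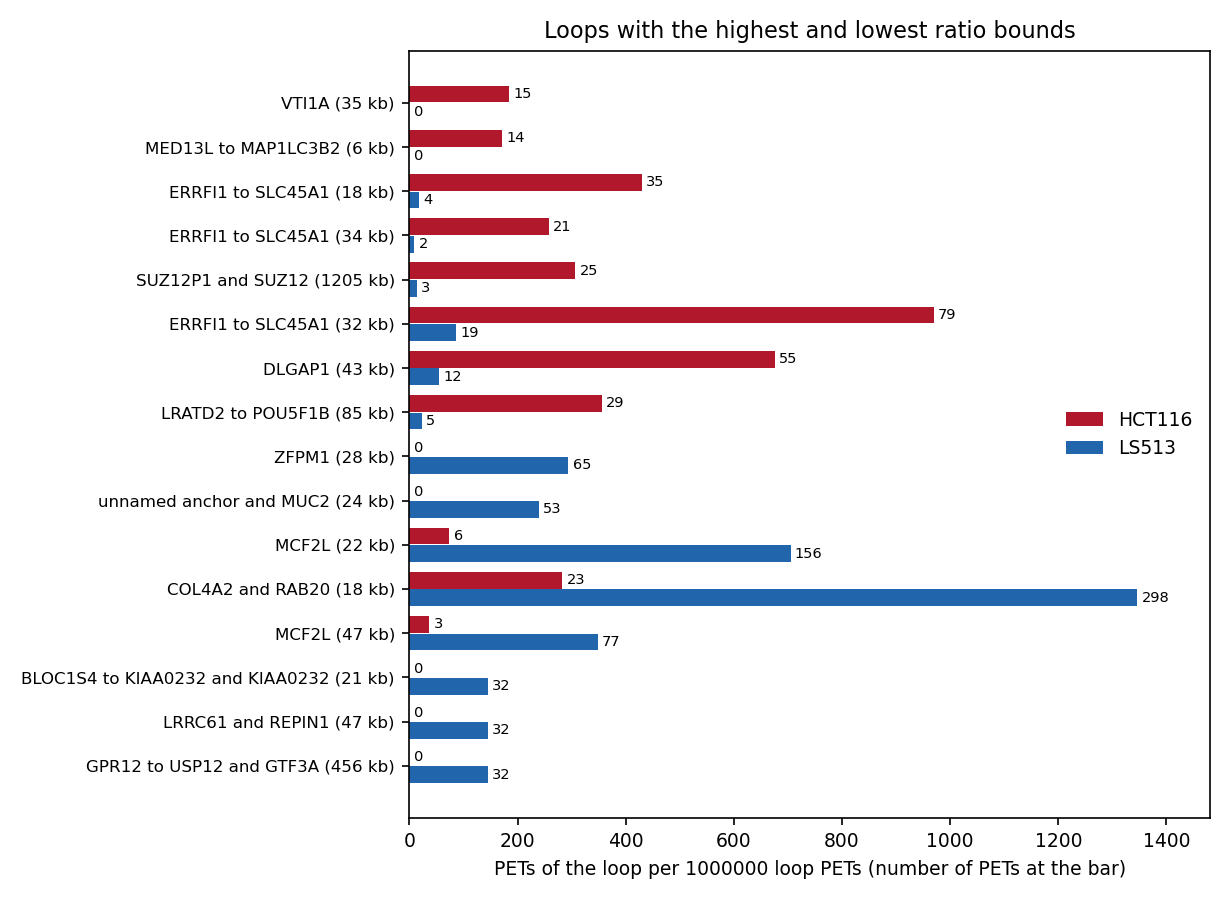
Bars give the PETs of a loop per 1000000 loop PETs (horizontal axis) in HCT116 (red, upper bar) and LS513 (blue, lower bar), with the number of PETs beside each bar, for the 8 loops whose interval began highest and the 8 whose interval ended lowest. Rows are named by the genes at or around the anchors and the distance between anchor midpoints. The COL4A2 to RAB20 loop is the longest bar of LS513, with 298 PETs against 23 in HCT116.

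Of the 8 loops whose interval began highest, 3 lay between ERRFI1 and SLC45A1. They joined anchors 18.02, 33.7 and 31.9 kb apart, with 35, 21 and 79 PETs in HCT116, against 4, 2 and 19 in LS513, at ratios of 23.8, 28.5 and 11.3, of which the second was 7 against the floor and the third 7.18 with LS513 thinned. A loop of 35.1 kb within VTI1A had 15 PETs in HCT116 and 0 in LS513, 13.6-fold higher against the floor with an interval from 9.75 (5.00-fold with LS513 thinned). A loop of 6.10 kb between MED13L and MAP1LC3B2 had 14 in HCT116 and 0 in LS513, 12.7-fold higher against the floor with an interval from 9.02 (4.67-fold with LS513 thinned). A loop of 42.6 kb within DLGAP1, a scaffold protein gene, had 55 in HCT116 and 12 in LS513 (12.5, 6.59 to 25.6), and a loop of 84.6 kb between LRATD2 and POU5F1B had 29 in HCT116 and 5 in LS513 (15.8, 6.03 to 52.2). Scaled by chromosome, a loop of 95.7 kb to the start of ELFN2 was added, with 35 in HCT116 and 9 in LS513 (10.6, 4.98 to 25).

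The longest of these, 1205 kb, joined the start of SUZ12, a Polycomb subunit gene, with the place of its pseudogene SUZ12P1, and had 25 PETs in HCT116 and 3 in LS513 (22.7, 6.91 to 117, and 12.5 with LS513 thinned). Its anchors had 6 same-anchor PETs each in HCT116, and 11 and 14 in LS513. Reads of the gene and its near-identical copy can be exchanged in mapping, and how such reads were treated is not given in the sources used here, so this loop is uncertain.

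The loop with most PETs in LS513 joined COL4A2 and RAB20 over 17.7 kb, with 23 PETs in HCT116 and 298 in LS513, giving a ratio of 0.210 (0.131 to 0.321) and 0.457 scaled by chromosome. In MCF2L, loops of 21.9 and 47.3 kb had 6 and 3 PETs in HCT116, against 156 and 77 in LS513 (0.105 and 0.106, and 0.228 and 0.231 scaled). The ZFPM1 loop of 27.8 kb between the gene's start and its inside had 0 in HCT116 and 65 in LS513, 7.97-fold lower against the floor (ratio interval up to 0.159). The MUC2 loop of 23.9 kb to chr11:1048206-1057643 had 0 in HCT116 and 53 in LS513, 6.50-fold lower against the floor (ratio interval up to 0.196). Both its anchors were also lower in same-anchor PETs. Loops at the starts of KIAA0232, REPIN1 and GTF3A, the gene of transcription factor IIIA, each had 0 in HCT116 and 32 in LS513. That at GTF3A spans 456 kb on chromosome 13 and was not called after scaling, while the other two were. Added by that scaling were loops at PWWP2B (10 in HCT116, 100 in LS513), ZNF710 (0 in HCT116, 29 in LS513), the VIP receptor gene VIPR1 (0 in HCT116, 27 in LS513) and between CTSD and TNNI2 (3 in HCT116, 67 in LS513).

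Loops at the starts of the listed genes gave named partners to the list counts. The ASCL2 start and an anchor 58.9 kb away (chr11:2212178-2242143) had 11 PETs in HCT116 and 146 in LS513 (0.205, 0.100 to 0.377). GATA6 had a loop of 163 kb with 1 PET in HCT116 and 24 in LS513 (0.113, 0.00275 to 0.695). CDX1 had 2 called loops, with 2 and 4 PETs in HCT116, against 39 and 62 in LS513. VIL1 had a loop of 17.02 kb with 3 in HCT116 and 47 in LS513 (0.174, 0.0345 to 0.539). All of these were called in either scaling. KLF5 had a loop of 102.6 kb with 3 in HCT116 and 45 in LS513 (0.181). CDX2 had a loop of 594 kb with 0 in HCT116 and 20 in LS513, 2.45-fold lower against the floor (ratio interval up to 0.5505). Scaled by chromosome, neither the KLF5 nor the CDX2 loop was called, at 0.395 and 0.889.

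Some list genes had loops in both directions or only higher ones. ELF3, an epithelial ETS factor, had 2 lower loops, with 17 and 8 PETs in HCT116 and 111 and 55 in LS513, and 1 higher loop of 24.7 kb, with 11 in HCT116 and 7 in LS513 (4.27, 1.51 to 12.99). DUSP5 had a loop of 94.5 kb with 26 PETs in HCT116 and 8 in LS513 (8.83, 3.88 to 22.6). IER3, an early response gene, had 3 higher loops of 20.8 to 68.5 kb, with 33, 16 and 28 PETs in HCT116, against 34, 13 and 21 in LS513. SMAD3 had 2 higher loops, of 20.8 and 41.9 kb, with 16 and 12 in HCT116 and 13 and 5 in LS513. CLDN3 and CLDN4, which encode neighbouring tight junction claudins, were joined by 7 PETs in HCT116 and 75 in LS513 (0.254, 0.0986 to 0.549).

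The readouts were then set against each other at the same anchors. Of 3140 anchors higher in same-anchor PETs 504 were higher in loop PETs (16.1%, or 60.6% of those higher in loop PETs) and 6 lower. Of 1279 lower in same-anchor PETs 357 were lower in loop PETs (27.9%, or 43.2% of those lower in loop PETs) and 2 higher. Across the 1785 anchors with at least 20 PETs of each class in each line, the log2 ratios had a Pearson correlation of 0.76 and a Spearman correlation of 0.72, and 0.72 and 0.68 scaled by chromosome. These describe anchors that share the 2 libraries, and anchors are not replicates. The loop ratio exceeded the same-anchor ratio by a median of 0.05 on the log2 scale, by 1 or more at 77 anchors and was lower by 1 or more at 32.

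**Figure D5:**
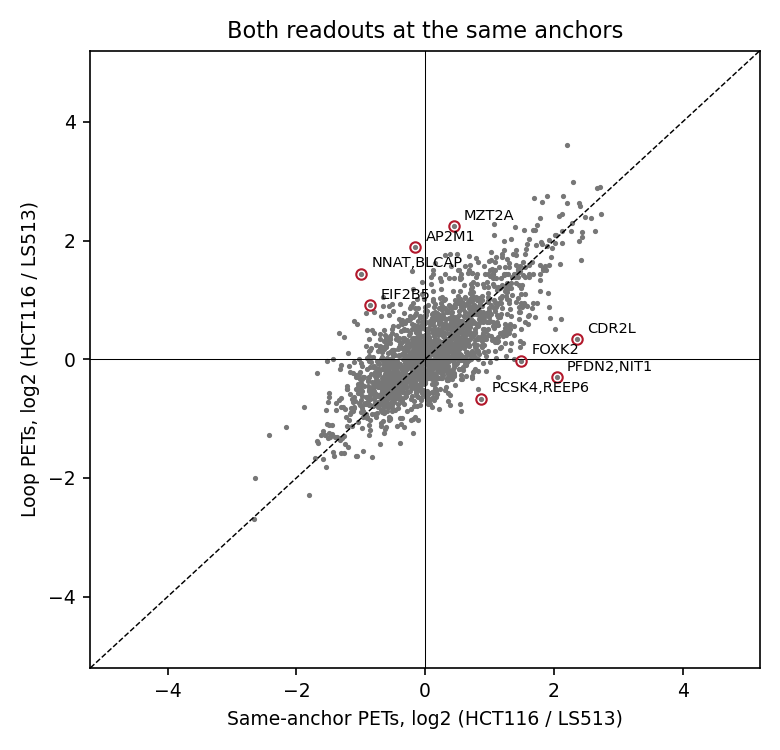
The log2 ratio of HCT116 over LS513 in loop PETs (vertical axis) is plotted against that in same-anchor PETs (horizontal axis) for the 1785 anchors with at least 20 PETs of each class in each line. The dashed line marks equal ratios, and red circles mark the 4 anchors farthest above and the 4 farthest below it: NNAT and BLCAP lie 2.44 above and PFDN2 and NIT1 2.34 below on the log2 scale.

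The anchor farthest above equality held the starts of the imprinted gene NNAT and of BLCAP, in which NNAT lies (chr20:36150479-36158857). Its same-anchor PETs were 144 in HCT116 and 461 in LS513 (0.502, 0.413 to 0.606, and 0.487 scaled by chromosome, which is called lower), while its loop PETs were 20 in HCT116 and 20 in LS513 (2.72, 1.39 to 5.32). AP2M1, a clathrin adaptor gene, followed with 46 same-anchor PETs in HCT116 and 82 in LS513 (0.901) and 30 loop PETs in HCT116 against 22 in LS513 (3.71). MZT2A had 33 same-anchor PETs in HCT116 and 39 in LS513 (1.36), and 35 loop PETs in HCT116 against 20 in LS513 (4.76) to 1 partner in HCT116 and 3 in LS513. All 35 in HCT116 thus joined 1 anchor. Whether reads were exchanged in mapping, as can occur at SUZ12, was not tested here. EIF2B5, a translation initiation factor gene near AP2M1, had ratios of 0.551 in same-anchor PETs (0.494 scaled, called lower) and 1.89 in loop PETs.

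Farthest below equality was the anchor with the starts of PFDN2 and NIT1 (chr1:161083875-161090638). It held 136 same-anchor PETs in HCT116 and 53 in LS513 (4.12, 2.98 to 5.78), but 24 loop PETs in HCT116 and 80 in LS513 (0.815, 0.494 to 1.30). CDR2L (80 same-anchor PETs in HCT116, 25 in LS513; 5.14) and the forkhead gene FOXK2 (84 in HCT116, 48 in LS513; 2.81) were likewise higher in same-anchor PETs only, with loop ratios of 1.27 and 0.985. The anchor of PCSK4 and REEP6 had 42 same-anchor PETs in HCT116 and 37 in LS513 (1.82), and 20 loop PETs in HCT116 against 86 in LS513 (0.632). At each of these 4 anchors the number of partners in HCT116 was 10 to 12, against 11 to 25 in LS513.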

How the data were processed

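H3K27ac HiChIP libraries of HCT116 and LS513 (1 each) were used. HiC-Pro and hg19 are named in the submitters' processing notes. Which program called the loops, and from what the anchors were taken, is not given in the sources used here. In all, the authors deposited whole-number counts of PETs per anchor pair, in a table of all pairs within a chromosome, which also lists each anchor paired with itself, and a table of filtered pairs. A further deposited table repeated the filtered counts beside a value from 0 to 1 in a column with no header. It was taken as a p-value of the authors after FDR adjustment and used in 1 alternative only. Tables of pairs between chromosomes were not used here.

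From these counts, same-anchor PETs, loop PETs per anchor and PETs per loop were taken at identical anchors of chromosomes 1 to 22 and X, and divided by the class total of the line. Intervals are exact conditional (Clopper-Pearson) 95% intervals. No test was run, since each line has 1 library, and the calls were checked on simulated data. The simulated counts were of same-anchor PETs and had counting error only. The check therefore cannot speak to variation between cultures or libraries, or to loop PETs. Alternatives changed the scaling, the PET minimum, the fold, the depth, the loop set and the anchor set.

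No hg19 annotation was at hand, and no coordinate was converted. Genes were named from a hand-written table of approximate hg19 positions of 287 genes, of which 271 passed a check: the offset of a gene from RefSeq on GRCh38.p14 had to match, within 3 kb, that of its other end or of another gene within 20 Mb. Genes of the table that failed were not placed at their start. A gene start counted at an anchor within 5 kb. "Between" 2 genes means that RefSeq lists no other protein-coding gene between them. Anchors and loops named by rule were the 8 whose interval began highest and the 8 whose interval ended lowest in each readout, 4 each way after scaling by chromosome and 4 each way by the difference between readouts. Some listed genes are counted but not reported by name here. Members, lists and rules were chosen with earlier results of these data known. The scripts ran on Python 3.11.15 with scipy 1.17.1 for intervals, pandas 2.3.3, numpy 2.4.6, and matplotlib 3.10.9 for plots.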

Additional observations from a re-analysis of the deposited data

How the results depend on the processing

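No paired analysis was possible because each line has 1 library. Counts are given as higher then lower in HCT116. In same-anchor PETs, with 3140 and 1279 anchors in the report, a 1.5-fold threshold gave 4239 and 2322 and a 3-fold threshold 1522 and 464. In loop PETs per anchor, with 832 and 827, the 3-fold threshold gave 452 and 425, loops at the deposited FDR under 0.01 gave 453 and 459, and a minimum of 20 PETs in the higher line left 339 and 793. Of single loops, with 267 and 278, setting the median ratio to 1 gave 162 and 929, a minimum of 20 PETs 76 and 241, a minimum of 5 PETs 695 and 278, the 3-fold threshold 192 and 176, and thinning LS513 to the PETs of HCT116 209 and 179. The other counts stayed within 1.5 times of these, including those over anchors of either line, an alternative added after seeing the data along with the median scaling of the gene lists. Anchors that overlap one to one were the identical anchors themselves. Scaled by chromosome, 83.9% of the anchors higher and 75.3% of those lower in same-anchor PETs kept their call. None of the 72 anchors and loops named by their interval bounds changed direction in any alternative run on them. Of these, the loop PETs of the COL4A2 anchor (ratio 0.542) and the GTF3A loop (0.555) were no longer called scaled by chromosome. With thinning the GTF3A and VIPR1 loops were not called (0.429 and 0.333). Listed genes were not part of that check, and the loop ratio of KLF5 moved from 0.471 to 1.03 scaled by chromosome. Thinning left 70 of the 72 named anchors and loops with their call but moved 21 ratios by more than 1.5 times, 4 of them to a larger ratio. Depth limits loops: a loop with 0 PETs can hold up to 36.8 loop PETs per 1000000 in HCT116 and 13.6 in LS513.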
